A study of Mus musculus with 4 samples.

Results

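The genes described here encode the enzymes that break glucose down to pyruvate, the pair of glucose transporters that feed them, the enzymes that set fructose-2,6-bisphosphate, 3 phosphatases of the reverse route and the enzymes of the pentose phosphate pathway. They were taken by name as a list of 34 symbols out of a table of 55335 genes, and all 34 were found. The symbol Aldoa stood on 2 rows, so the list covered 35 rows, and the row with the most reads was used. Of 18661 genes with enough reads to test, 34 were members, so no member was lost to the filter on low counts.

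RNA was sequenced from the mouse ESC line AB2.2, which is kept on feeders of mouse embryonic fibroblasts. There were 2 control libraries and 2 lactate libraries, the latter made after 24 h with lactate added at 50 mM. The medium of all 4 contained fetal bovine serum at 15% and leukemia inhibitory factor at 1000 U/mL, together with the GSK3 inhibitor CHIR99021 at 3 μM and the MEK inhibitor PD0325901 at 1 μM. Only this line was used, and no step that removes feeder cells is named for these libraries. These are bulk samples, so fewer cells of a type and less RNA per cell cannot be told apart. The labels do not say whether the libraries of a group came from separate cultures, so p-values measure only the spread between these libraries, which may be technical.

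In glycolysis, glucose enters through GLUT transporters, is phosphorylated by hexokinase, committed by phosphofructokinase, split by aldolase and oxidized to pyruvate, which lactate dehydrogenase can turn into lactate. The pentose phosphate pathway branches off at glucose-6-phosphate, and its oxidative arm makes NADPH while its non-oxidative arm interconverts sugar phosphates. Mouse ESCs are known for a high glycolytic rate, and many glycolytic genes are classic targets of hypoxia-inducible factors and of Myc.

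Promoter sequence is shown for Aldoc, Tpi1 and Slc2a1, the members with the smallest unadjusted p-values, because the hypoxia-inducible factor binding core is a short motif that can be read in these letters. The stretches lie upstream of every annotated exon of their gene in the RefSeq windows on GRCm38.p6, 5′ to 3′ on the gene's strand. Capitals mark a match to GCGTG on either strand.
Aldoc (chr11:78322823-78322967, plus strand): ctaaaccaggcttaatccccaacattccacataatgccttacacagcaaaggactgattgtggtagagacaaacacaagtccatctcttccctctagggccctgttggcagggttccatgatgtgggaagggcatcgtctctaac
Tpi1 (chr6:124814297-124814408, minus strand): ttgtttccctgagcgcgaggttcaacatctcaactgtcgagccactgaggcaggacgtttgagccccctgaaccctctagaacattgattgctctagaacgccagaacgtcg
Slc2a1 (chr4:119108495-119108710, plus strand): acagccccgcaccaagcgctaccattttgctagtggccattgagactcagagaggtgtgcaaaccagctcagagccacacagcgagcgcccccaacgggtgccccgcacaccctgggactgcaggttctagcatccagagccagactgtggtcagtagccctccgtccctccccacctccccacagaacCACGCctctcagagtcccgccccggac
The Slc2a1 stretch of 216 bases held 1 match, read as CACGC on the printed strand, and the 145 bases of Aldoc and the 112 bases of Tpi1 held neither ACGTG nor GCGTG. The whole windows from which these were taken also cover the start of the gene, where Aldoc held 1 ACGTG and 2 GCGTG, Slc2a1 held 1 ACGTG and Tpi1 held neither. In whole windows from 250 bases before to 50 bases after a gene's start, 33 members had at least 1 window. Of these, 26 (78.8%) held ACGTG or GCGTG on either strand in at least 1 window, against 46.7% of 27025 genes. The E-box CACGTG, which contains ACGTG and is bound by Myc among others, was present in 5 members (15.2%), against 8.09% of all genes. Among the 11 members that were lower with lactate at the looser threshold given next, 9 (81.8%) held either core and 0 held the E-box. Among the other 22 members with a window, 17 (77.3%) held either core and 5 (22.7%) held the E-box. A match is a description of the letters only.

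RNA of many glycolytic genes was lower in the lactate cells. The changes were moderate, and 0 members passed the call rule, which asked for over 2-fold at an adjusted p under 0.05 (edgeR quasi-likelihood test, Benjamini-Hochberg over all genes tested). Over all genes, 0.348% were called lower and 0.552% higher by that rule. At an adjusted p-value under 0.10 with any fold, 11 of 34 members (32.4%) were lower and 0 were higher, against 3.89% of all genes lower and 3.78% higher. DESeq2 at an adjusted p-value under 0.05 also gave 11 lower and 0 higher, with 11 shared between the tools, against 3.13% of genes lower and 1.86% higher. Without adjustment, 15 members (44.1%) were lower and 1 (2.94%) was higher at p under 0.05, against 11.4% and 11.7% of all genes. Members were chosen with earlier results of these data known, and the comparison with all genes is not matched for expression level. These shares are a description.

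The direction was shared more widely than the calls. Of the 34 members, 24 had a lower and 10 a higher estimate with lactate. Their median log2 fold change came to -0.39, against 0.01 over all genes tested. In 21 members (61.8%) both lactate libraries lay below both control libraries, and in 4 members (11.8%) both lay above, against 25.9% and 27% of all genes. Leaving out 1 library, which leaves 1 in its group, lowered the looser count in most of these fits. The count of lower genes over all genes fell in the same fits. Without lactate replicate 1 it fell only slightly, while the count of members fell far more in proportion. Scaling by library totals alone gave 4 lower members, with 529 of all genes lower against 726 in the reported fit. Limma-trend on log2(FPKM + 1), with 1 as the pseudocount, gave 0 members and 0 genes of any kind at that threshold. In each of the 16 alternative fits tried, all 11 genes kept a lower estimate.

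**Figure D1:**
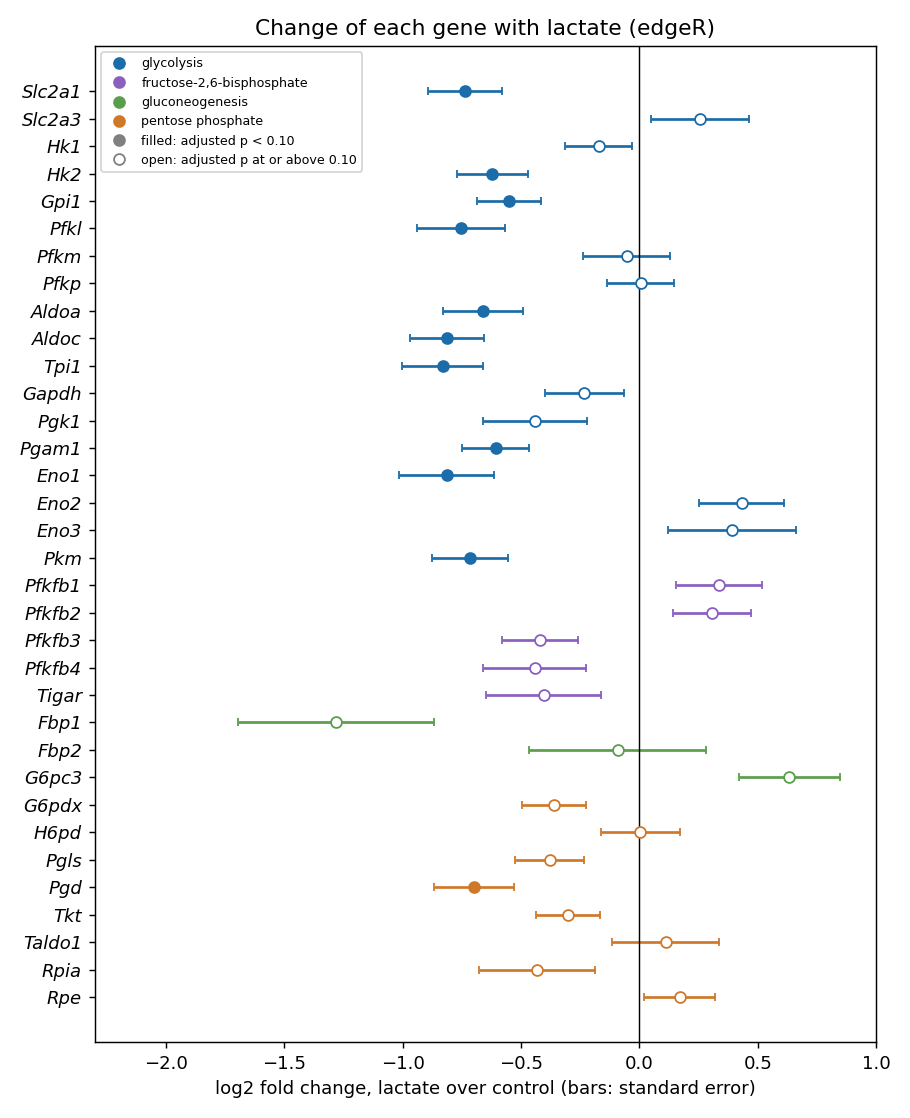
Log2 fold change of lactate over control from edgeR for the 34 members in pathway order, with bars for the standard error, coloured by branch and filled where the adjusted p-value was under 0.10. Of the 11 filled points, 10 belong to uptake and glycolysis and 1, Pgd, to the pentose phosphate pathway, and all lie between -0.83 and -0.55.

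The libraries held 18067562 and 19077885 gene reads for control and 18542554 and 18948861 for lactate, and mitochondrial transcripts took 5.48% and 2.43% against 5.72% and 2.82%, so a difference in mitochondrial RNA ran between replicate numbers and not between groups. The 8 pluripotency markers were at 221 CPM or more in every library, with 5 higher and 3 lower estimates. Sox2 (log2 fold change 0.56, edgeR adjusted p = 0.0888), Zfp42 (0.52, adjusted p = 0.112) and Klf4 (0.39, adjusted p = 0.153) were higher with lactate at an unadjusted p under 0.05, and both lactate libraries lay above both controls for each. The 10 feeder fibroblast markers were all detected, with Lum the lowest at 0.405 to 0.738 CPM, and they summed to 3018 and 3249 CPM in control and 3840 and 3474 CPM with lactate. Without Fn1, the most abundant of them, the sum was 629 and 901 CPM in control against 518 and 627 CPM with lactate. By edgeR, 0 of the 10 passed an adjusted p under 0.10, and Col3a1 (log2 fold change -0.90, adjusted p = 0.105) and Vim (-0.75, adjusted p = 0.118) were lower at an unadjusted p under 0.05. DESeq2 gave these 2 genes adjusted p-values of 0.0397 and 0.0224, so they passed its threshold as the 11 members did. The part of either marker list in the members' results was not tested.

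The members spanned a wide range of levels. By FPKM, which is per transcript length, Gapdh was highest in control at a mean of 4242, followed by Pkm at 1549 and Aldoa at 1535, and then Eno1 at 794, Pgam1 at 679 and Slc2a3 at 572. Pkm and Aldoa did not differ beyond the spread of the control libraries, 1424 and 1675 for Pkm against 1379 and 1692 for Aldoa. The lowest was Fbp1 at 0.815. The 16 enzymes from hexokinase to pyruvate kinase took 1.36% and 1.52% of all TPM in control and 1.11% and 1.06% with lactate, and without Gapdh 0.799% and 0.909% against 0.549% and 0.578%. The pentose phosphate enzymes took 0.0853% and 0.101% against 0.0787% and 0.0907%, where the groups overlap.

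**Figure D2:**
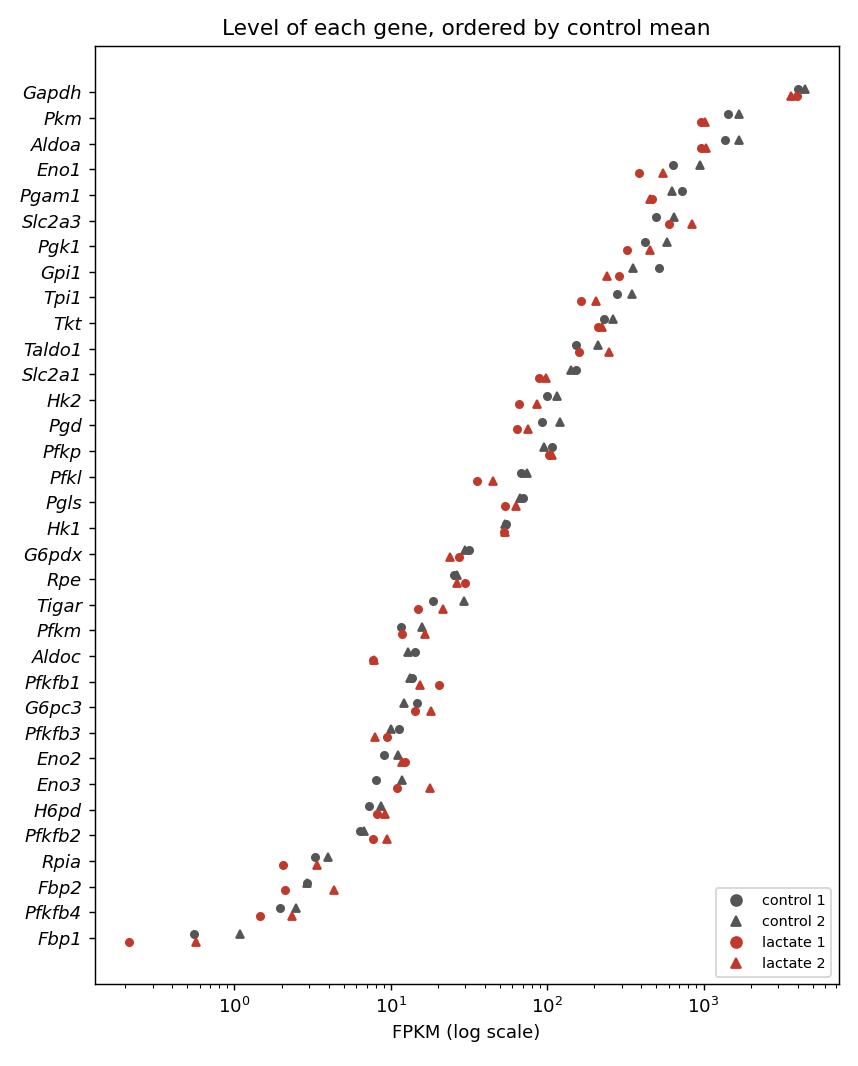
FPKM of each member in the 4 libraries on a log axis, ordered by the control mean, with controls in grey, lactate in red, replicate 1 as circles and replicate 2 as triangles. Levels run from 0.210 for Fbp1 in lactate 1 to 4436 for Gapdh in control 2, and in the highly expressed genes Pkm, Aldoa and Tpi1 the red points lie left of the grey ones.

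At glucose uptake, Slc2a1 was lower with lactate, while Slc2a3 did not pass the test, and the difference between the pair was not tested. Slc2a1 (GLUT1, chromosome 4, 119108711 to 119137983) was at 457 and 370.2 CPM in control and 248.4 and 248.5 CPM with lactate. Both lactate libraries lay well below both controls, at 60.0% of the control mean (log2 fold change -0.74, SE 0.16, adjusted p = 0.0688). Slc2a3 (GLUT3), the more abundant transporter in these cells, was at 1838 and 2247 CPM against 2097 and 2781 CPM, so its groups overlap (0.26, SE 0.21, adjusted p = 0.508). Slc2a1 made up 23.5% and 18.1% of the summed FPKM of the pair in control and 12.8% and 10.5% with lactate.

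At the first phosphorylation, Hk2, the hexokinase isoform that is regulated by insulin and hypoxia in many tissues, was lower. It was at 489 and 527 CPM in control and at 304 and 357 CPM with lactate, 65.0% of control (log2 fold change -0.62, SE 0.15, adjusted p = 0.0875). The housekeeping isoform Hk1 had an estimate of -0.17 (SE 0.14, adjusted p = 0.518). It was at 208 and 201 CPM in control and 196 and 168 CPM with lactate, so its groups did not overlap either. Hk2 took 64.7% and 68.2% of hexokinase FPKM in control and 55.3% and 61.7% with lactate. Gpi1, which isomerizes glucose-6-phosphate to fructose-6-phosphate, was at 823 and 819.9 CPM against 557 and 565 CPM (-0.55, SE 0.14, adjusted p = 0.0932). In CPM the gap was far wider than the spread in either group. In FPKM, at 521 and 354 against 290.0 and 242, the groups did not overlap but the controls differed from each other by more than the gap. Of the annotated exon bases of Gpi1, 11.5% overlap an opposite-strand lincRNA, and the strand setting of the counting is not given in the sources used here.

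Phosphofructokinase, the committing step, was divided by subunit. The liver-type subunit Pfkl (chromosome 10, 77986947 to 78010083) was at 192.5 and 245 CPM in control and 115 and 144 CPM with lactate (log2 fold change -0.75, SE 0.18, adjusted p = 0.0903). The platelet-type subunit Pfkp, at 474 and 419 CPM against 461 and 435 CPM, had an estimate of 0.0057 (SE 0.14, adjusted p = 0.987), and the muscle-type subunit Pfkm one of -0.05 (SE 0.18). The sign of Pfkp turned in 6 and that of Pfkm in 5 of the 16 alternative fits. Pfkl supplied 36.3% and 40.2% of phosphofructokinase FPKM in control and 23.8% and 26.8% with lactate, and Pfkp 57.5% and 51.3% against 68.4% and 63.4%.

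Aldolase and triose phosphate isomerase, which split fructose-1,6-bisphosphate and balance its products, were both lower. Aldoa was at 1374 and 1674 CPM in control and 913 and 1015 CPM with lactate (log2 fold change -0.66, SE 0.17, adjusted p = 0.0993). The much scarcer Aldoc was at 26.8 and 24.8 CPM against 14.3 and 15.1 CPM (-0.81, SE 0.15, adjusted p = 0.0606), the smallest adjusted p-value of the 34 members. Aldoa kept over 98% of aldolase FPKM in all 4 libraries. The other Aldoa row, on chromosome 7 from 126800790 to 126809108, had only 38 and 53 reads in control and 21 and 24 with lactate. Tpi1 was at 359 and 432 CPM against 199.6 and 245 CPM, 56.2% of control (-0.83, SE 0.17, adjusted p = 0.0678).

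In the lower, energy-yielding steps the enzymes differed in how far they were below control. Gapdh was at 4109 and 4323 CPM against 3830 and 3351 CPM, 85.2% of control (log2 fold change -0.23, SE 0.17, adjusted p = 0.459), and Pgk1 was at 613 and 825 CPM against 451 and 609 CPM, groups that only just missed overlapping (-0.44, SE 0.22, adjusted p = 0.289). Pgam1, the phosphoglycerate mutase, was at 755 and 707 CPM against 462 and 499 CPM (-0.61, SE 0.14, adjusted p = 0.0818). Pkm, the pyruvate kinase gene that makes the final step's enzyme, was at 2822 and 3211 CPM against 1804 and 1871 CPM (-0.72, SE 0.16, adjusted p = 0.0771). The M1 and M2 isoforms of Pkm cannot be told apart in gene-level values, and 15.3% of its exon bases overlap another annotated gene on the same strand. The FPKM ratio of Pkm to Gapdh was 0.352 and 0.378 in control and 0.245 and 0.283 with lactate.

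In the enolase family the abundant isozyme was lower and the scarce ones had higher estimates. Eno1 was at 1406 and 1848 CPM in control and 833 and 1019.7 CPM with lactate (log2 fold change -0.81, SE 0.20, adjusted p = 0.0920). The neuron-type Eno2, at 11.8 and 14.0 CPM against 16.4 and 18.5 CPM, had an estimate of 0.43 (SE 0.18, adjusted p = 0.217), and the muscle-type Eno3 one of 0.39 (SE 0.27, adjusted p = 0.432). Eno1 took 97.4% and 97.6% of enolase FPKM in control and 94.3% and 94.9% with lactate.

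Some of these genes share reads with near-identical copies. Eno1b, a copy of Eno1, had 8887 and 11845 raw reads in control and 5548 and 7104 with lactate, and was lower by a like amount (log2 fold change -0.79, SE 0.17, adjusted p = 0.0722). RSEM, which divides ambiguous reads, gave Eno1 only 69.4%, 76.2%, 68.2% and 75.8% of its raw reads in the 4 libraries and gave Eno1b 195% to 236% of its own. The summed FPKM of Eno1 and Eno1b was 1556 and 2000 in control and 951 and 1139 with lactate, and their joint share of enolase FPKM was 98.9% in both controls against 97.6% and 97.5%. Pgam1 had expected counts of 111% to 128% of its raw reads, and its pseudogene Pgam1-ps2 was also lower (-0.79, SE 0.13, adjusted p = 0.0520). The levels of Eno1 and Pgam1 are therefore uncertain, although both members of each pair had lower estimates. In the edgeR fit on RSEM expected counts, Eno1 (-0.85, adjusted p = 0.129) and Pgam1 (-0.65, adjusted p = 0.110) did not pass 0.10. Gpi1 (-0.56, adjusted p = 0.102) did not pass there either, and 8 members were lower at that threshold.

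**Figure D3:**
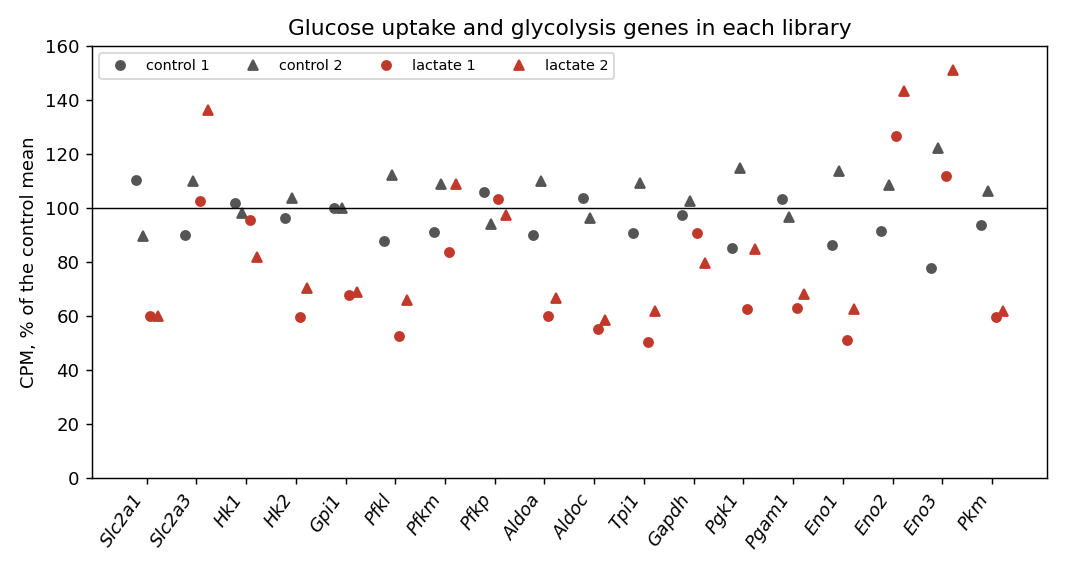
CPM of the 18 uptake and glycolysis members in each library as a percentage of the control mean, with controls in grey and lactate in red. Both lactate points lie below both controls in 13 members: Slc2a1, Hk1, Hk2, Gpi1, Pfkl, Aldoa, Aldoc, Tpi1, Gapdh, Pgk1, Pgam1, Eno1 and Pkm. Pfkp stays near 100% and Eno2 lies above its controls.

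**Figure D4:**
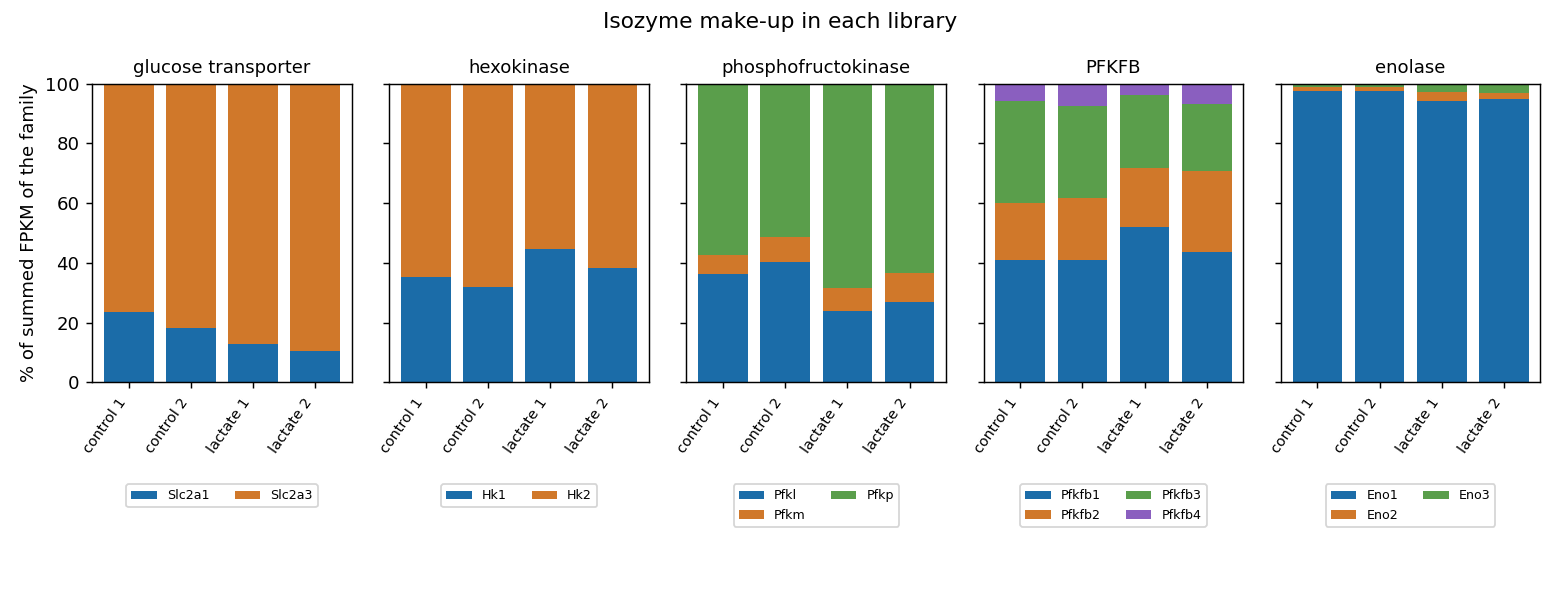
Share of each isozyme in the summed FPKM of its family for the 4 libraries. Slc2a1, Hk2, Pfkl, Pfkfb3 and Eno1 each take a smaller share in both lactate libraries than in either control, with Pfkl going from a mean of 38.2% to 25.3%.

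No test was run on the isozyme shares or ratios, which are a description. An exact permutation test of 2 libraries against 2 cannot give a p below 0.333. On raw counts in place of FPKM, the shares of Slc2a1, Hk2, Pfkl and Eno1 were also lower with lactate.

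The fructose-2,6-bisphosphate enzymes, which tune phosphofructokinase, had 0 members at an adjusted p under 0.10 and 1 at an unadjusted p under 0.05 (edgeR), and 0 at an adjusted p under 0.05 by DESeq2. The bifunctional kinase Pfkfb3 was at 50.9 and 41.6 CPM in control and 36.6 and 32.6 CPM with lactate (log2 fold change -0.42, SE 0.16, adjusted p = 0.192). Pfkfb4 (-0.44, SE 0.22) and Tigar (-0.40, SE 0.24), a fructose-2,6-bisphosphatase, had lower estimates, while Pfkfb1 (0.34, SE 0.18) and Pfkfb2 (0.31, SE 0.16) had higher ones, with both lactate libraries above both controls. Of the annotated exon bases of Pfkfb2, 17.4% overlap another gene on the same strand.

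Of the phosphatases on the reverse route, Fbp1, fructose-1,6-bisphosphatase, was scarce, with 19 and 25 reads in control and 6 and 13 with lactate. Its groups did not overlap (log2 fold change -1.28, SE 0.41, adjusted p = 0.144). Fbp2 had an estimate of -0.09 (SE 0.37) and overlapping groups. G6pc3, the broadly expressed glucose-6-phosphatase subunit, was at 12.8 and 10.8 CPM in control and 15.4 and 21.04 CPM with lactate, and was the only member with a higher estimate at an unadjusted p under 0.05 (0.63, SE 0.21, adjusted p = 0.156). Its FPKM, 14.6 and 12.2 against 14.3 and 18.2, overlapped between the groups.

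In the pentose phosphate pathway, 5 of 8 members had lower estimates and their median log2 fold change was -0.33, against -0.58 for the 18 uptake and glycolysis members. In the oxidative arm, Pgd, 6-phosphogluconate dehydrogenase (chromosome 4, 149149991 to 149166771), was at 177 and 227 CPM in control and 117 and 132 CPM with lactate (-0.70, SE 0.17, adjusted p = 0.0887). G6pdx, the dehydrogenase at the entry, was at 66.7 and 61.6 CPM against 52.3 and 47.5 CPM (-0.36, SE 0.13, adjusted p = 0.181), and the lactonase Pgls at 46.2 and 45.9 CPM against 32.7 and 38.2 CPM (-0.38, SE 0.14, adjusted p = 0.189). For G6pdx and Pgls the groups did not overlap, but 13.6% and 20.6% of their exon bases overlap another gene. H6pd, the endoplasmic reticulum enzyme, had an estimate of 0.0049 (SE 0.17) whose sign turned in 6 of 16 alternatives.

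In the non-oxidative arm no member reached an unadjusted p of 0.05. Tkt, transketolase, was at 531 and 565 CPM in control and 449 and 439.7 CPM with lactate (log2 fold change -0.30, SE 0.14, adjusted p = 0.246). Rpia had a lower estimate (-0.43, SE 0.25), and Taldo1 (0.11, SE 0.23) and Rpe (0.17, SE 0.15) had higher estimates with overlapping groups. For Rpe, 17.9% of exon bases overlap a gene on the opposite strand.

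Other genes of glucose handling, from a list of 30 paralogs and side enzymes, gave 23 tested, of which 12 had higher and 11 lower estimates, with a median log2 fold change of 0.0042. Pck2, the mitochondrial phosphoenolpyruvate carboxykinase, was called and rose from 32.3 and 41.2 CPM to 112 and 146 CPM (1.81, SE 0.20, adjusted p = 0.0346). At an unadjusted p under 0.05, Hkdc1 (1.29), Pklr (1.07) and Tktl2 (0.65) had higher estimates and Pgm1 (-0.48) and Prps2 (-0.47) lower ones, with adjusted p-values from 0.108 to 0.188.

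At the lactate end of the pathway, 3 of 7 genes had higher and 4 lower estimates. Ldha, which favours making lactate from pyruvate, was at 1163 and 1202 CPM in control and 635 and 716 CPM with lactate (log2 fold change -0.81, SE 0.15, adjusted p = 0.0578), and the lactate exporter Slc16a3 had an estimate of -1.31 (adjusted p = 0.0563). Ldhb, the heart-type subunit, had one of 0.47 (SE 0.15, adjusted p = 0.140). By edgeR 0 of the 7 genes were called, while DESeq2 called 1 lower, Slc16a3 (-1.33, adjusted p = 1.7e-05), and 0 higher.

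Of 10 regulators of these genes, 5 had higher and 5 lower estimates. Txnip, which restrains glucose uptake and is induced through MondoA, was called and rose from 267 and 302 CPM to 802 and 962 CPM (log2 fold change 1.63, SE 0.17, adjusted p = 0.0320). Epas1, which encodes HIF-2α, had an estimate of -1.09 (SE 0.19, adjusted p = 0.0553), and Hif1a one of 0.37 (SE 0.21, adjusted p = 0.348). DESeq2 called Epas1 lower (-1.11, adjusted p = 0.0093) and Txnip higher (1.61, adjusted p = 5.3e-13). Mycn (0.63, adjusted p = 0.0674) and Myc (0.64, adjusted p = 0.185) had higher estimates, and Trp53 (-0.51, adjusted p = 0.0946) a lower one.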

How the data were processed

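RNA-seq of 2 control and 2 lactate libraries was analysed. The authors' deposited raw counts per gene came from reads trimmed with cutadapt 1.16 and mapped to mm10, and the expected counts, TPM and FPKM that the authors deposited for each library came from STAR and RSEM, per the labels. The study's methods name the gene counting of STAR over exons of GENCODE M23. The strand setting, and the program behind the transposable element families in the same count table, are not given in the sources used here. CPM here are raw counts scaled by library totals and TMM factors of edgeR 4.0.16 in R 4.3.3.

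Genes were filtered by filterByExpr, and lactate was compared with control by the legacy quasi-likelihood test of edgeR, two-sided, with Benjamini-Hochberg adjustment over 18661 genes. The SE is the fold change divided by the square root of F. Alternatives were DESeq2 1.42.0 (an adjusted p it gave as missing stayed missing), limma 3.58.1 on log2(FPKM + 1) and log2(FPKM + 0.1), other scalings and filters, RSEM expected counts rounded to whole numbers, a replicate term, and each library left out in turn. The tests were tried on simulated counts. Positions are from GENCODE M21 on GRCm38, which held all 34 members at the same identifier version, and promoter windows are from RefSeq on GRCm38.p6. In the GENCODE annotation, 16 members have an exon that overlaps another gene. Protein sequences were not used here.

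All 34 members are accounted for. Values per library are given where the unadjusted p was under 0.05 or where groups did not overlap and differed over 1.5-fold, and also for other members where a step is compared. Genes of the other lists are named at an unadjusted p under 0.05, and Hif1a, Lum and Fn1, which lie above it, are named as well. Promoters are shown for the 3 smallest p-values. Members and lists were chosen with earlier results of these data known.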

Additional observations from a re-analysis of the deposited data

How the results depend on the processing

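Across the 16 alternatives the 11 genes lower at an adjusted p under 0.10 kept their direction, while the number passing that threshold varied as given below. Against the call rule of 2-fold at an adjusted p under 0.05, which hardly any member met in any fit, 518 single-gene values kept direction and side, 24 changed sign and 1 became a call. Depth was 18067562 gene reads or more per library, so counting error is small for all but Fbp1, Fbp2, Pfkfb4 and Rpia, and precision is also limited by having 2 libraries per group. The replicate numbers are not said in the labels to pair libraries. The differences between replicates 1 and 2 correlated between groups at r = 0.686 across genes, which are not independent replicates. An edgeR fit with a replicate block called 1 member (Fbp1, log2 fold change -1.28, adjusted p = 0.0093) and 3 of the other glucose enzymes. In that fit 22 members were lower and 7 higher at an adjusted p under 0.10, all 5 fructose-2,6-bisphosphate genes among them. Over all 18661 genes, 4780 were lower and 4823 higher in that fit at the same threshold. At an unadjusted p under 0.05, 7 members were higher. The cause of each change below was not tested.

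The count of 11 lower members went to 4 with library totals alone and to 0 under limma-trend with either pseudocount. On RSEM expected counts it went to 8, with 564 of 15595 genes lower at that threshold. It fell in most fits with a library left out. The count of lower genes over all genes fell in the same fits, but only slightly without lactate replicate 1. In that fit the members' count fell far more in proportion. With 1 library left in a group, that library is assumed to vary like the others. Over all genes, 168 were called in the reported fit, against 1156 with the replicate block, 807 without a filter, 358 by DESeq2, 44 on RSEM expected counts and 0 by limma-trend with either pseudocount, and 84 to 869 with a library left out. Members higher at an adjusted p under 0.10 ranged from 0 to 1 with a library left out. At an unadjusted p under 0.05, limma-trend gave 7 (pseudocount 1) and 9 (pseudocount 0.1) lower members and 0 higher with either, while 2 were higher under RLE or upper-quartile factors, library totals, at least 10 counts in every library, the non-legacy form and RSEM expected counts, and 0 to 2 with a library left out. The median of the members was -0.25 under limma-trend with either pseudocount and ranged from -0.53 to -0.28 with a library left out. Limma-trend called 0 of the other glucose enzymes with either pseudocount. No value for Fbp1 could be had with at least 10 counts in every library.

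On raw counts the share of Slc2a1 with lactate was 9.40%, that of Hk2 71.2% in control and 64.4% with lactate, that of Pfkl 31.0% and 20.99%, and that of Eno1 98.4% and 96.4%.

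Where every library was kept, the estimates that changed sign lay near 0. H6pd was -0.00042 with RLE factors, -0.039 without a filter, -0.015 with DESeq2 and -0.0079 without mitochondrial genes. Pfkp was -0.038 without a filter, -0.014 with DESeq2, -0.021 on expected counts and -0.0073 without mitochondrial genes. Pfkm was 0.014 with library totals and 0.038 and 0.040 under limma-trend with pseudocounts of 1 and 0.1. Fbp2 was 0.060 on expected counts and 0.060 and 0.057 under limma-trend with pseudocounts of 1 and 0.1. With a library left out, H6pd ranged from -0.14 to 0.12, Taldo1 from -0.19 to 0.33, Pfkm from -0.26 to 0.10, Pfkp from -0.085 to 0.079, Fbp2 from -0.75 to 0.32 and Rpe from -0.00073 to 0.30.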
